A study of Mus musculus with 21 samples.

Results

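The RNA levels of fibroblast growth factor (FGF) receptors, ligands and Sprouty inhibitors were followed in whole uteri of young and old mice. The set was given by name: the receptors Fgfr1, Fgfr2 and Fgfr3, the ligands Fgf2, Fgf7, Fgf9, Fgf10 and Fgf18, and the inhibitors Spry1 and Spry2. Of these 10 genes, 9 were among the 12791 genes listed in the deposited tables, and Fgf18 was not analysed here. No listed gene had fewer than 10 reads in any library, and a gene that was silent in any uterus is therefore missing from the tables.

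FGF ligands are secreted proteins that bind receptor tyrosine kinases at the cell surface together with heparan sulfate. The receptors then signal through the adaptor FRS2 and the RAS and ERK kinases, and Sprouty proteins, which that signal induces, dampen it. In the uterus, FGFs made in the stroma act on the epithelium, where they promote growth under estrogen, and the stromal transcription factor HAND2, induced by progesterone, is known to repress several FGF ligands. Ligands differ in the receptor forms they bind: FGF7 and FGF10 act mainly through the IIIb splice form of FGFR2, which epithelia make, and FGF9 acts mainly through the IIIc forms and FGFR3.

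All mice were wild type C57BL/6J, an inbred laboratory strain, and all, the young controls included, had been injected with pregnant mare serum gonadotropin (PMSG), a hormone that drives follicle growth, 48 hours before the uterus was taken. The dose was 5 or 7.5 units, and the labels do not assign it to single mice. The groups were 7 libraries from 5-week-old mice, 7 from 8-week-old mice and 6 from aged mice. The replicates fall into an earlier set (replicates 1 and 2, in which the old mice were 60 to 75 weeks old) and a later set (replicates 3 to 7, in which they were 79 weeks old). In the aged group, the set and the age of the mice therefore cannot be told apart. The labels name 2 RNA kits and 2 sequencers without assigning them to samples, so whether these follow the sets is not known here.

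The deposited values were CPM, read counts scaled to the same sum in every library. Whole reads recomputed from them numbered 12204573 to 14448283 per library in the earlier set (6 libraries) and 19100690 to 30689439 in the later set (14 libraries). The labels do not say whether replicates came from separate mice, so p-values measure the spread between these libraries. In 15 of 20 files the column header named another sample than the one the file was attached to, in 2 cases a sample of another age and in 2 a sample of the same age but the other set (aged replicates 2 and 5). Columns were taken as the header names them, and results are also given without the 2 libraries from files of another age, 5-week replicate 3 and 8-week replicate 3. Of the marker genes looked up, 14 of 14 epithelial, 10 of 10 stromal, 11 of 11 smooth muscle and 2 of 6 uterine gland genes were listed. A listed gene had at least 10 reads in every library, which does not by itself show the organ. In whole tissue, fewer cells of a type and less RNA per cell cannot be told apart.

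Fgfr2 was higher in aged uteri than in uteri of both younger ages, by a little under 2-fold. Fgfr1 was higher than at 5 weeks by a similar factor, and its difference from 8 weeks missed the threshold. None of the 4 ligands and neither Sprouty gene passed the test in any comparison of ages, and no member passed it between 5 and 8 weeks. The test was limma on log2(CPM + 1) over all 12791 genes with a term for the set, called at a Benjamini-Hochberg adjusted p under 0.05. By this rule 1 of 9 members was called between aged and 8-week uteri, where 17.2% of all genes were called, 8.64% higher and 8.53% lower. Between aged and 5-week uteri 2 of 9 were called, against 22.1% of all genes, 12.7% higher and 9.41% lower. Between 8 and 5 weeks 0 of 9 were called, against 0.0% of all genes, with 139 genes at an unadjusted p under 0.05 and also 0 by limma-voom.

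**Figure D1:**
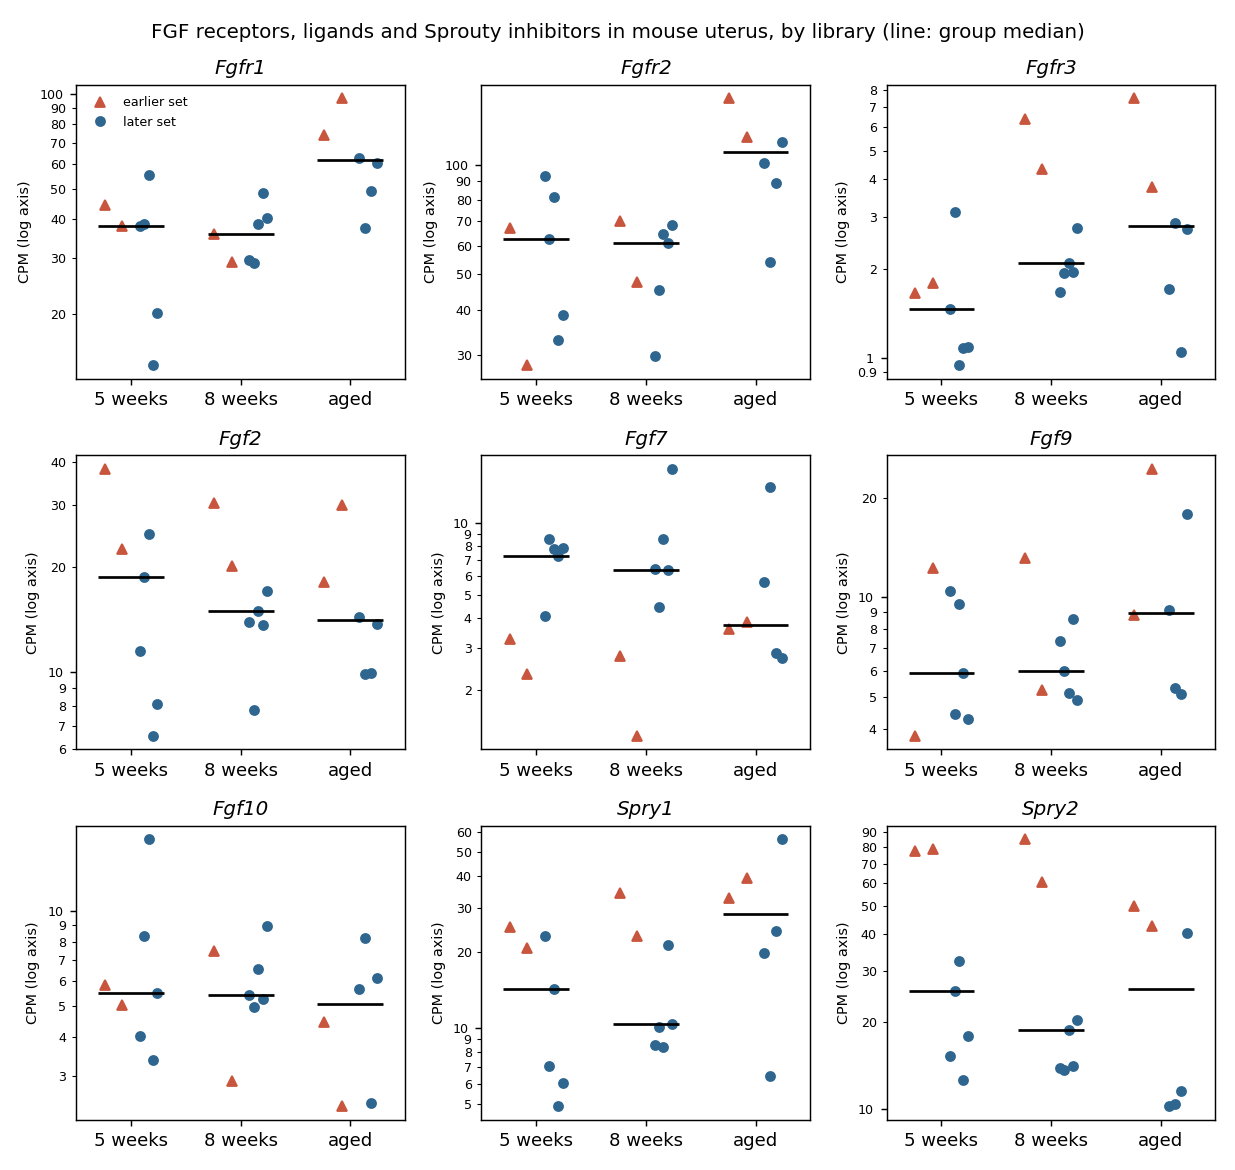
CPM of the 9 listed members in each of the 20 libraries (log axis), by age group. Triangles are libraries of the earlier set, circles those of the later set, and lines are group medians; aged libraries reach the highest values of Fgfr1 (96.9) and Fgfr2 (152), while Spry2 separates the sets more than the ages.

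Fgfr1 encodes the receptor tyrosine kinase that is the main FGF receptor of stromal and other mesenchymal cells. The gene lies on GRCm38 chromosome 8 from 25513654 to 25575718. Its level was 35.5 ± 14.2 CPM (SD, n = 7) at 5 weeks, with a lowest, median and highest library of 13.7, 38.0 and 55.3. At 8 weeks it was 35.9 ± 7.23 CPM (SD, n = 7), from 29.1 through 35.9 to 48.5. In aged uteri it was 63.4 ± 20.6 CPM (SD, n = 6). The individual aged libraries held 73.9 and 96.9 CPM in the earlier set and 62.6, 37.6, 49.0 and 60.2 CPM in the later set. Thus 4 of 6 aged libraries lay above every younger library, 5 lay above the younger median of 38.0, and aged replicate 5, at 37.6, lay just below it.

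The difference of Fgfr1 from 5 weeks was 0.86 ± 0.26 (SE) on the log2(CPM + 1) scale, a 1.82-fold difference with a limma adjusted p of 0.0225. From 8 weeks it was 0.75 ± 0.26, 1.68-fold, with an adjusted p of 0.0514 and a 95% interval of 0.21 to 1.29. That second value stood at the threshold: it was called with trimmed-mean factors (adjusted p = 0.0251), with median centring (0.0220) and without 5-week replicates 5 or 6, 8-week replicate 6 or aged replicate 5. The call against 5 weeks was lost without 5-week replicate 7 (adjusted p = 0.0525) or aged replicate 2 (0.0607). Without the 2 libraries from files of another age the differences were 0.91 (adjusted p = 0.0257) from 5 weeks and 0.72 (0.0962) from 8 weeks.

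Fgfr1 was then compared within each set. Within the earlier set Fgfr1 was higher in aged uteri by 1.36 ± 0.22 against 8 weeks (limma adjusted p = 0.0117) and by 1.02 ± 0.22 against 5 weeks (0.0270), with both aged libraries above all 4 younger ones. Within the later set the differences were 0.48 ± 0.33 (adjusted p = 0.545) and 0.77 ± 0.33 (0.203), and the groups overlapped. The difference between sets in the age effect did not pass the test for Fgfr1 (-0.88 ± 0.55 later minus earlier, limma adjusted p = 0.485, against 8 weeks). Nor did it for any other member in either comparison. Against 8 weeks 3 of 12791 genes (0.0235%) passed it, with 1855 at an unadjusted p under 0.05. Against 5 weeks 0 passed it, with 1079 at an unadjusted p under 0.05.

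Fgfr2 encodes the receptor whose epithelial splice form receives FGF7 and FGF10 from the stroma. The annotated gene spans chromosome 7 from 130162451 to 133123350, with 3.04% of its exon length shared with Ctbp2 on the same strand. Values per gene do not separate the IIIb form from the mesenchymal IIIc form. The level was 57.8 ± 25.05 CPM (SD, n = 7) at 5 weeks, with a lowest, median and highest library of 28.2, 62.7 and 93.0, and 55.2 ± 14.8 CPM (SD, n = 7) at 8 weeks, from 29.8 through 61.1 to 70.1. Aged uteri held 105 ± 32.8 CPM (SD, n = 6): 152 and 119 in the earlier set, and 101, 54.0, 88.9 and 115 in the later set. As for Fgfr1, every younger library lay below 4 of the 6 aged ones, and aged replicate 5 was the only aged library below the younger median of 61.9.

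Fgfr2 differed from 8 weeks by 0.89 ± 0.29 on the log2(CPM + 1) scale (1.86-fold, limma adjusted p = 0.0387) and from 5 weeks by 0.90 ± 0.29 (1.87-fold, adjusted p = 0.0300). Both calls were sensitive to single libraries. The call against 8 weeks was lost without 8-week replicates 2, 3 or 4 or without aged replicates 1, 2, 4, 6 or 7, with adjusted p from 0.0128 to 0.102 over the 20 fits that each left out 1 library. The call against 5 weeks was lost without 5-week replicates 2, 6 or 7 or aged replicates 1, 2, 4 or 7, with adjusted p from 0.00989 to 0.0811. Without both libraries from files of another age the difference was 0.76 from 8 weeks (adjusted p = 0.0701) and 1.04 from 5 weeks (0.0102). In the earlier set alone Fgfr2 was higher by 1.202 ± 0.407 against 8 weeks (adjusted p = 0.0660) and by 1.60 ± 0.41 against 5 weeks (0.0379), and in the later set alone by 0.74 ± 0.33 (0.329) and 0.59 ± 0.33 (0.338).

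**Figure D2:**
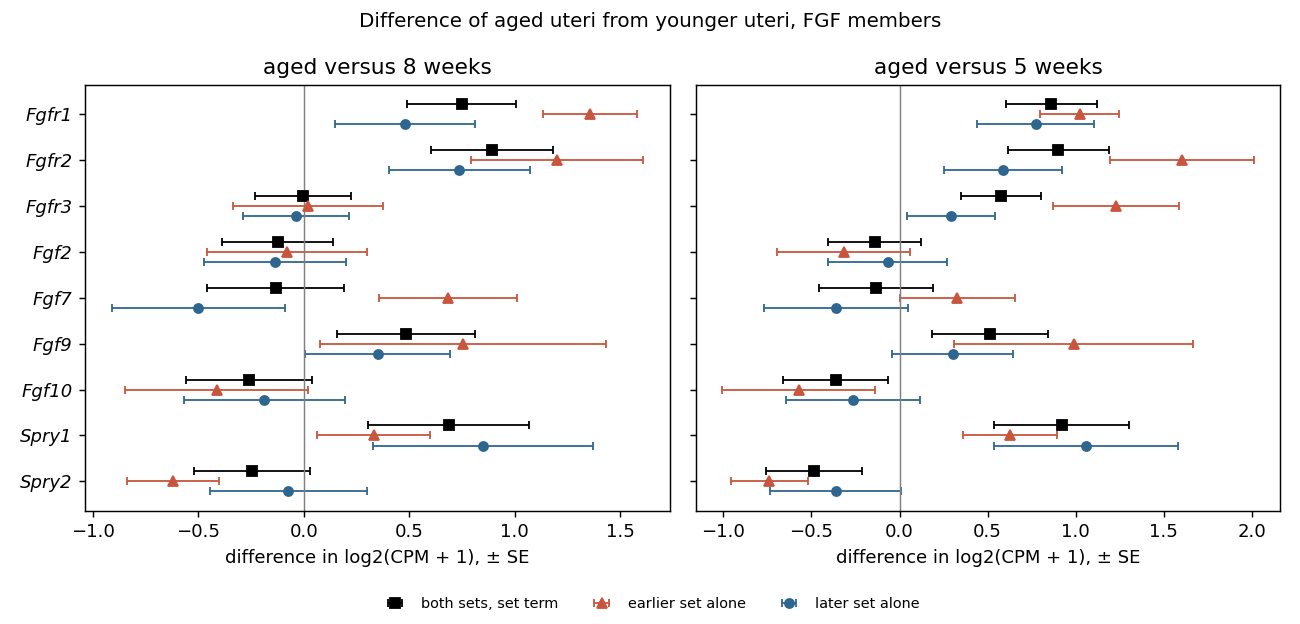
Difference of aged from 8-week uteri (left) and from 5-week uteri (right) for each member on the log2(CPM + 1) scale, with standard errors. Squares are fits over both sets with a set term, triangles the earlier set alone and circles the later set alone; Fgfr1 and Fgfr2 lie right of 0 in all of them, and Fgf7 lies on opposite sides of 0 in the 2 sets.

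Markers of the epithelium, smooth muscle and stroma are given beside all genes, of which 17.2% were called against 8 weeks and 22.1% against 5 weeks. Of the 14 epithelial markers 1 was higher in aged uteri against each younger age (Cldn4, a tight junction gene), 1 was lower against 5 weeks (Cldn7), and the list's median difference was -0.35 against 8 weeks and -0.52 against 5 weeks, beside medians over all genes of 0.05 and 0.09. Summed epithelial marker levels ran from 2190 to 7607 CPM in aged, 2605 to 12266 in 8-week and 3095 to 11618 in 5-week libraries. Of the 11 smooth muscle markers 0 were called against 8 weeks and 2 were higher against 5 weeks (Smtn and Lmod1, genes of the contractile apparatus). Their median difference was 0.41 against 8 weeks and 0.50 against 5 weeks. Standard errors of single smooth muscle markers were large, from 0.37 (Smtn) to 0.65 (Actg2). The summed level of these markers ran from 3117 to 27402 CPM in aged, 1772 to 20469 in 8-week and 2440 to 15975 in 5-week libraries. Of the 10 stromal markers 0 were called against 8 weeks and 2 were lower against 5 weeks (the collagen genes Col1a1 and Col1a2). The stromal median difference was -0.10 against 8 weeks and -0.06 against 5 weeks. Stromal sums were 4530 to 8209 CPM in aged, 5460 to 8794 in 8-week and 5602 to 14219 in 5-week libraries. Because the tables list no gene with fewer than 10 reads, no marker could be at 0. Plasma cell markers (4 of 4 listed) and lymphatic markers (5 of 6 against 8 weeks, 4 of 6 against 5 weeks) were higher in aged uteri, and all 8 cell cycle genes were lower. Red blood cell genes were higher against 8 weeks (4 of 4) but not called against 5 weeks (0 of 4), and macrophage markers were higher in 1 of 7 and 3 of 7. Of 9 listed estrogen-responsive genes 1 was higher (Ltf) and 3 were lower (Igf1, Sprr2b and Sprr2a3) against each younger age. Of the 2 gland markers Foxa2 was higher and Lif lower, and the adipocyte gene Lipe was higher, also against both. The oviduct gene Ovgp1 was higher against 5 weeks. The part of any of these in the receptor values was not tested.

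Fgfr3, a receptor with a high affinity for FGF9 in its IIIc form, was the least abundant member per exon length in the group means over both sets. The gene (chromosome 5, 33721674 to 33737068) had only 23 to 96 reads per library. Its level was 1.59 ± 0.741 CPM (SD, n = 7) at 5 weeks (0.946 to 3.11, median 1.47), 3.02 ± 1.74 CPM (SD, n = 7) at 8 weeks (1.67 to 6.39, median 2.09) and 3.27 ± 2.28 CPM (SD, n = 6) in aged uteri (1.05 to 7.51, median 2.79). The groups overlapped throughout, and the highest values at 8 weeks and in aged uteri came from the earlier set. The difference between aged and 8-week uteri was 0.00 ± 0.23 on the log2(CPM + 1) scale, with a 95% interval of -0.48 to 0.47. From 5 weeks aged uteri differed by 0.58 ± 0.23 (limma adjusted p = 0.0729), which was called without 5-week replicate 4 (0.73, adjusted p = 0.0166) or aged replicate 6 (0.71, 0.0319). Its exons share 13.9% of their length with a gene on the opposite strand, G630022F23Rik, and the NEBNext Ultra library kit named in the labels does not mark strand, so reads of the 2 genes cannot be told apart there.

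For each ligand the ranges of the age groups overlapped. Fgf2 (GRCm38 chromosome 3, 37348346 to 37410108), a ligand without a classical secretion signal that binds several receptors, held 18.6 ± 11.1 CPM (SD, n = 7) at 5 weeks (6.55 to 38.2, median 18.7), 16.8 ± 7.09 (SD, n = 7) at 8 weeks (7.78 to 30.5, median 14.9) and 16.01 ± 7.55 (SD, n = 6) in aged uteri (9.87 to 30.1, median 14.0). The aged range lay wholly inside the 5-week range. The log2(CPM + 1) differences were -0.12 ± 0.26 from 8 weeks (95% interval -0.67 to 0.43) and -0.14 ± 0.26 from 5 weeks (-0.69 to 0.41). Of its exon length, 9.44% is shared with the opposite-strand gene Nudt6, which held 2.23 to 2.97 CPM as group means and was not called either.

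Fgf7 and Fgf10, the stromal ligands of epithelial FGFR2, were not called in any comparison. Fgf7 (chromosome 2, 126034658 to 126091185) held 5.88 ± 2.56 CPM (SD, n = 7) at 5 weeks (2.33 to 8.56, median 7.29), 6.67 ± 5.09 (SD, n = 7) at 8 weeks (1.29 to 16.8, median 6.32) and 5.46 ± 4.35 (SD, n = 6) in aged uteri (2.72 to 14.1, median 3.73). Its differences from 8 and 5 weeks were both -0.13 ± 0.33 on the log2(CPM + 1) scale, with 95% intervals of -0.81 to 0.55 and -0.81 to 0.54. These pooled values hide opposite orders in the sets: both aged libraries of the earlier set (3.60 and 3.86 CPM) lay above its 4 younger ones, and 2 of the 4 aged libraries of the later set lay below all 10 younger ones. The sets' difference in the age effect was -1.18 ± 0.69 against 8 weeks (adjusted p = 0.448) and was not called.

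Fgf10 (chromosome 13, 118669791 to 118792115) held 6.99 ± 4.62 CPM (SD, n = 7) at 5 weeks (3.37 to 16.8, median 5.51), 5.93 ± 1.95 (SD, n = 7) at 8 weeks (2.90 to 8.97, median 5.41) and 4.89 ± 2.25 (SD, n = 6) in aged uteri (2.41 to 8.21, median 5.07). The lowest values of all were those of 2 aged libraries, while the other 4 lay among the younger ones. The differences were -0.26 ± 0.30 from 8 weeks (95% interval -0.88 to 0.36) and -0.36 ± 0.30 from 5 weeks (-0.98 to 0.26).

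Fgf9, a ligand of the IIIc receptor forms (chromosome 14, 58070547 to 58112720), reached its highest values in 2 aged libraries. It held 7.25 ± 3.45 CPM (SD, n = 7) at 5 weeks (3.81 to 12.3, median 5.89), 7.20 ± 2.97 (SD, n = 7) at 8 weeks (4.88 to 13.2, median 6.00) and 11.8 ± 7.77 (SD, n = 6) in aged uteri (5.11 to 24.5, median 8.99). Only aged replicate 2 (24.5) and aged replicate 7 (17.9) exceeded every younger library. The differences of 0.48 ± 0.33 from 8 weeks (limma adjusted p = 0.324) and 0.51 ± 0.33 from 5 weeks (0.268) were not called. Mesothelial markers, 4 of 5 listed and none called, summed to 67.7 to 984 CPM in aged, 52.5 to 299 in 8-week and 70.8 to 397 in 5-week libraries. Their highest sum was also in aged replicate 2. In aged replicate 7 the sum was 270, close to the 266 of aged replicate 4, where Fgf9 was at 9.14 CPM, and below the 471 of aged replicate 1, where Fgf9 was at 8.84 CPM. In each age group the library with the lowest mesothelial sum also had the lowest Fgf9 (3.81 CPM at 5 weeks, 4.88 at 8 weeks and 5.11 in aged uteri). At 5 weeks the highest sum and the highest Fgf9 were both in replicate 2. At 8 weeks the highest sum was in replicate 6 and the highest Fgf9 in replicate 1. The part of mesothelial cells in the Fgf9 values was not tested.

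The Sprouty inhibitors Spry1 and Spry2, intracellular brakes on receptor signalling to ERK, had age differences of opposite sign, none of them called. Spry1 (chromosome 3, 37639947 to 37644598) held 14.5 ± 8.64 CPM (SD, n = 7) at 5 weeks (4.88 to 25.2, median 14.3), 16.6 ± 9.96 (SD, n = 7) at 8 weeks (8.37 to 34.3, median 10.4) and 29.7 ± 17.1 (SD, n = 6) in aged uteri (6.44 to 56.0, median 28.4). Of the aged libraries, 5 of 6 lay above the younger median of 12.3, and 2 lay above every younger library. The difference was 0.69 ± 0.38 from 8 weeks (adjusted p = 0.223) and 0.92 ± 0.38 from 5 weeks (adjusted p = 0.0880). The latter was called without aged replicate 5 (1.22, adjusted p = 0.0161), without 5-week replicate 3 (1.12, 0.0330) and without both libraries from files of another age (1.12, 0.0394). It was 0.60 (adjusted p = 0.223) without aged replicate 7. Of the Spry1 exon length, 24.4% is shared with the opposite-strand gene Gm42922.

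Spry2 (chromosome 14, 105891947 to 105896819) held 37.1 ± 28.7 CPM (SD, n = 7) at 5 weeks (12.6 to 78.7, median 25.6), 32.3 ± 28.7 (SD, n = 7) at 8 weeks (13.6 to 85.2, median 18.7) and 27.6 ± 18.8 (SD, n = 6) in aged uteri (10.2 to 50.3, median 25.99). Most of this spread lay between the sets. Within the earlier set both aged libraries (50.3 and 42.7 CPM) lay below all 4 younger ones, whose lowest was 60.5. Within the later set 3 of 4 aged libraries (10.2, 10.4 and 11.5 CPM) lay below all 10 younger ones, whose lowest was 12.6, and aged replicate 7, at 40.5 CPM, lay above them all. The fitted differences were -0.25 ± 0.27 from 8 weeks (limma adjusted p = 0.569) and -0.48 ± 0.27 from 5 weeks (0.209). One library decided the latter: without aged replicate 7 it was -0.80 with an adjusted p of 0.00856. In that library the summed smooth muscle markers (3117 CPM) were the lowest of the aged libraries. In the earlier set, aged replicates 1 and 2 had smooth muscle sums of 18418 and 3945 CPM, with Spry2 at 50.3 and 42.7 CPM. The part of smooth muscle in these Spry2 values was not tested.

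The set term was called for 5 of 9 members, against 58.7% of all genes, 20.5% higher and 38.3% lower in the later set. Both Sprouty genes were lower in the later set, by a difference of -1.09 ± 0.34 for Spry1 (limma adjusted p = 0.00911) and -1.88 ± 0.24 for Spry2 (3.80e-06). The sets also differed in marker sums. At 8 weeks, where the contrast was largest, the median smooth muscle sum was 2225 CPM in the earlier and 16122 in the later set, and the epithelial sum 10485 and 3452. At 5 weeks these medians were 5203 and 10955 for smooth muscle, and 10989 and 4610 for epithelium. In aged uteri they were 11182 and 17263 for smooth muscle, and 6195 and 3829 for epithelium. The smooth muscle sums of the sets overlapped at 5 weeks and in aged uteri, but not at 8 weeks. The part of tissue makeup in the set differences was not tested. The promoters of Spry1 and Spry2 are shown as those of the 2 inhibitors, which both differed between the sets. The 250 bases before the start are from RefSeq on GRCm38.p6, at chr3:37639697-37639946 on the plus strand and chr14:105896820-105897069 on the minus strand, written 5′ to 3′ along the gene. Capitals mark the E-box letters CANNTG (a palindromic pattern, the same on both strands), the core recognised by basic helix-loop-helix factors, the family that includes HAND2.
Spry1: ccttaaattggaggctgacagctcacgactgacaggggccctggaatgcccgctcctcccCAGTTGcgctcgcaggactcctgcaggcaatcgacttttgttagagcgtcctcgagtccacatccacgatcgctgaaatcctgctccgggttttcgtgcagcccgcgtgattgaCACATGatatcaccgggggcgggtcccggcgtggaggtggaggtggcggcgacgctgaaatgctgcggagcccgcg
Spry2: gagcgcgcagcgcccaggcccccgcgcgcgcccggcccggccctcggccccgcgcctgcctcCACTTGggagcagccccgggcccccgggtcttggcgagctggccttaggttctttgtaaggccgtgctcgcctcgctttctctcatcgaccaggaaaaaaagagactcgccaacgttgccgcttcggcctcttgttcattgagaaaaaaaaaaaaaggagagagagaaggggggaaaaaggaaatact
The Spry1 window holds 2 matches and the Spry2 window 1, and 66.2% of 32851 RefSeq windows of that length hold at least 1. Both windows are 62.4% G and C, against a median of 52.4% over all windows. Windows were found for 9 of the 10 genes, and Fgfr1 was the one without.

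Levels were compared between members only after division by exon length. In 8-week uteri the order in CPM per kb of exon was Spry2 (15.5 ± 13.8, SD, n = 7), Spry1 (5.72 ± 3.43), Fgfr2 (5.35 ± 1.43), Fgfr1 (3.63 ± 0.732), Fgf2 (2.48 ± 1.04), Fgf7 (2.05 ± 1.57), Fgf9 (1.55 ± 0.638), Fgf10 (1.29 ± 0.424) and Fgfr3 (0.422 ± 0.243). Each neighbour in this order overlapped the next within 1 SD except Fgf10 and Fgfr3. These means pool both sets, and the order differed between them. In the earlier set (n = 2) Spry2 was at 34.9, Fgf2 (3.73) stood above Fgfr1 (3.30), and Fgf7 (0.627) was last, below Fgfr3. In the later set (n = 5) Spry2 was at 7.72, Fgfr2 (5.21) stood above Spry1 (4.05), and Fgf7 (2.62) above Fgf2 (1.99). In aged uteri Fgfr2 reached 10.2 ± 3.17 and Fgfr1 6.42 ± 2.08 CPM per kb (SD, n = 6), while the 4 ligands lay between 1.06 and 2.54 on the same scale.

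**Figure D3:**
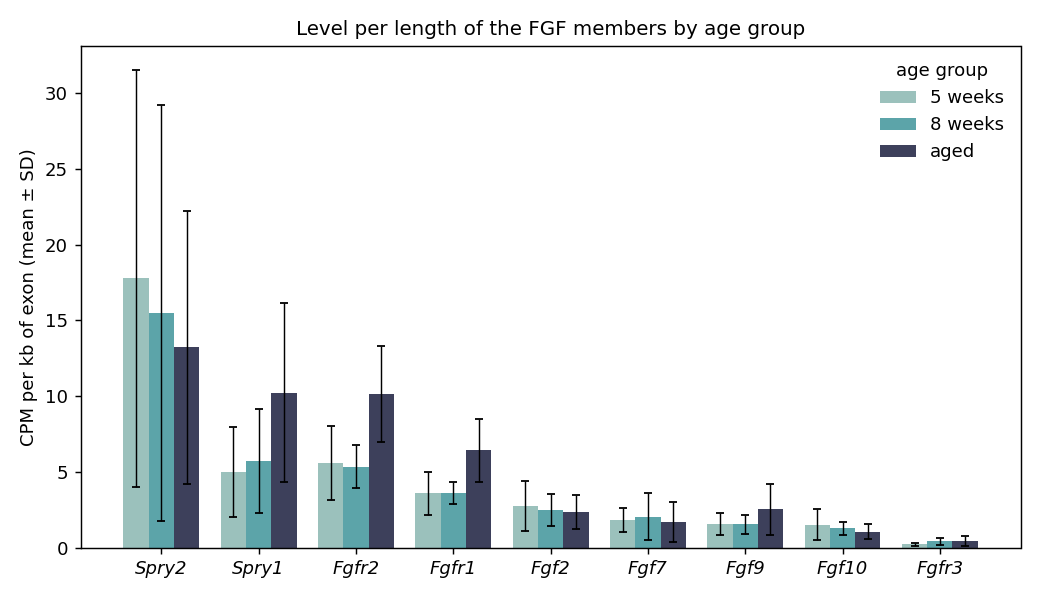
Mean CPM per kb of exon (bars from 0, error bars SD; n = 7, 7 and 6 libraries) for each member and age group. Fgfr2 rises from 5.35 at 8 weeks to 10.2 in aged uteri, and the SD of Spry2 at 8 weeks (13.8) is close to its mean (15.5).

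Some pairs of members also varied together from library to library within an age and set. After subtraction of the mean of each age group and set, Pearson's r was computed for all 36 pairs of members over 20 libraries. With 100000 permutations within age group and set, 3 pairs had a Benjamini-Hochberg adjusted p under 0.05, each with a positive r. The share of called pairs among all listed genes was not computed, so 3 of 36 is not known to be particular to the members. Fgfr1 and Fgf2 had r = 0.855 (permutation p = 0.00024, adjusted p = 0.00864) and Spearman's rho = 0.762 (p = 0.00194, adjusted p = 0.0266). Their r was 0.967 in the earlier set (6 libraries) and 0.870 in the later set (14 libraries). In the earlier set each age group has 2 libraries, whose deviations mirror each other. Every r given for that set therefore rests on only 1 independent deviation per age group. In 5-week replicates 6 and 7 both were low, with Fgfr1 at 13.7 and 20.2 and Fgf2 at 6.55 and 8.06 CPM, and without the 2 libraries farthest from the Fgfr1 median r was 0.746.

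Fgfr1 and Fgfr2 had r = 0.778 (permutation p = 0.00056, adjusted p = 0.0101) and rho = 0.741 (p = 0.00188, adjusted p = 0.0266). Their r was 0.755 without the 2 farthest libraries, 0.394 in the earlier set and 0.859 in the later set. Fgfr2 and Spry1 had r = 0.705 (permutation p = 0.00197, adjusted p = 0.0236) and rho = 0.743 (p = 0.00222, adjusted p = 0.0266), with 0.687 without the 2 farthest libraries, 0.588 in the earlier and 0.760 in the later set. All these libraries differ in depth and tissue makeup, which the pairs share, and the part of those in the correlations was not tested.

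Across all listed genes, the patterns most like each member were found by Pearson's r over the 20 libraries after subtraction of each set's mean, given as a description. For Fgfr1 the closest was Meis1, a homeobox transcription factor (r = 0.947), then Zfp13 and Slc25a23. For Fgfr2 these were Jmy (0.899), Oaz2 and Maml2, and for Fgfr3 they were Alox12 (0.799), Clcf1 and Hhex. Among the ligands, Fgf2 was most like Spire1 (0.908) and Fgf7 most like the endothelin receptor gene Ednrb (0.913). Fgf9 was most like Foxo6 (0.884), with Bnc1 next (0.867). Fgf10 was most like Map1a (0.860), with Cd248, a gene of perivascular and stromal cells, next (0.859). Spry1 was most like Slc25a28 (0.949) and Spry2 most like Ppp2r2d (0.930). None of the 9 had another member among its closest 3 genes.

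Of 92 other genes of the pathway, 67 were listed. Against 8 weeks 6 were higher in aged uteri and 1 was lower, 10.4% called, beside 17.2% of all genes, and against 5 weeks 8 were higher and 1 was lower, 13.4% called, beside 22.1%. The median difference over the 67 was 0.07 against 8 weeks and 0.05 against 5 weeks, near the medians of 0.05 and 0.09 over all genes. Between 8 and 5 weeks 0 of the 67 were called. Of the 7 genes called against 8 weeks, 0 were called in the later set alone, where 183 of all genes were.

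**Figure D4:**
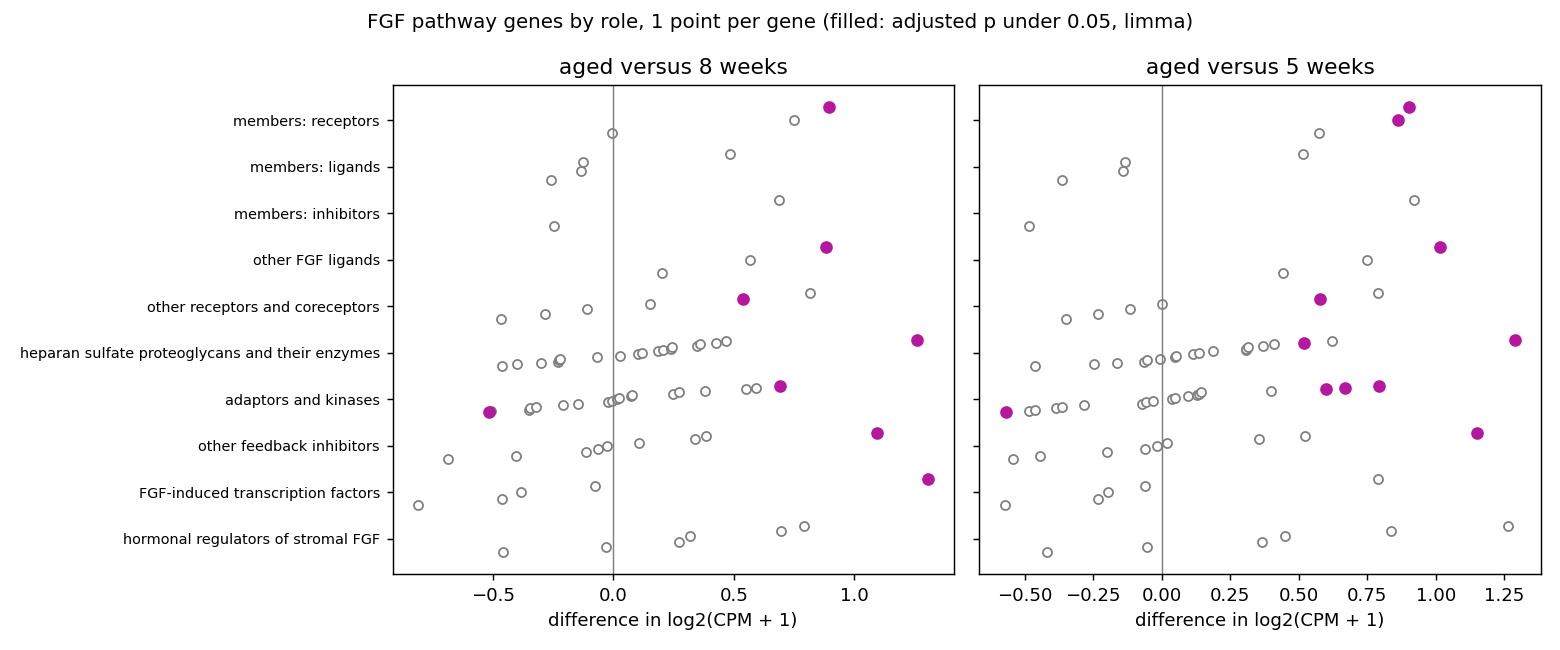
Difference of aged from 8-week (left) and 5-week uteri (right) for the 9 members and 67 other listed pathway genes, 1 point per gene, on the log2(CPM + 1) scale, grouped by role. Filled points have a limma adjusted p under 0.05; most points are open, and the filled ones lie mainly to the right of 0.

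Among the other genes of the FGF family, 3 of 17 were listed (Fgf1, Fgf11 and Fgf12), and the 1 called, Fgf11, does not encode a secreted ligand. Fgf11, an intracellular FGF homologue that is not secreted, held 2.97 ± 1.28 CPM (SD, n = 7) at 5 weeks, 3.33 ± 1.35 (SD, n = 7) at 8 weeks and 6.73 ± 1.71 (SD, n = 6) in aged uteri. It was higher by 0.88 ± 0.22 against 8 weeks (limma adjusted p = 0.0109) and by 1.02 ± 0.22 against 5 weeks (0.00333), with 4 of 6 aged libraries higher than any younger one, and it was called in all 20 fits that left out 1 library in either comparison. Fgf1, a secreted ligand that binds all FGF receptors, varied from 10.6 to 215 CPM among aged libraries and differed by 0.57 ± 0.55 from 8 weeks (adjusted p = 0.505).

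Among receptors, coreceptors and binding proteins, 1 of 6 listed genes was called. Fgfbp3, a secreted carrier of FGFs, was higher by 0.54 ± 0.17 against 8 weeks (limma adjusted p = 0.0390) and 0.58 ± 0.17 against 5 weeks (0.0228), from 2.72 ± 0.743 CPM (SD, n = 7) at 8 weeks to 4.37 ± 1.06 (SD, n = 6) in aged uteri. Its call against 8 weeks held in 11 of the 20 fits that left out 1 library. Fgfrl1, a receptor without a kinase domain, differed by -0.28 ± 0.28 and Flrt2, a membrane protein of a family that binds FGF receptors, by 0.15 ± 0.26 from 8 weeks, neither called. Flrt2 was called in the earlier set alone (1.18, adjusted p = 0.0435) and differed by -0.31 (0.631) in the later set.

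Of 19 listed heparan sulfate genes, 1 was higher against 8 weeks and 2 against 5 weeks. Gpc3, a membrane proteoglycan, rose from 47.8 ± 30.3 CPM (SD, n = 7) at 8 weeks and 45.9 ± 27.7 (SD, n = 7) at 5 weeks to 104 ± 53.5 (SD, n = 6) in aged uteri, by 1.26 ± 0.39 (limma adjusted p = 0.0328) and 1.29 ± 0.39 (0.0239). The call against 8 weeks held in 13 of 20 fits without 1 library. Sdc2, another such proteoglycan, was higher against 5 weeks by 0.52 ± 0.17 (adjusted p = 0.0371), and was called in 13 of those 20 fits.

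Of 19 adaptors and kinases, all listed, Frs3 and Nras were called in both comparisons. Frs3, a docking adaptor of FGF receptors, was higher by 0.69 ± 0.20 against 8 weeks (limma adjusted p = 0.0213) and 0.79 ± 0.20 against 5 weeks (0.00768), although 16.3% of its exon length is shared with the opposite-strand Frs3os. Nras, a RAS family GTPase, was lower, with differences of -0.52 ± 0.12 (adjusted p = 0.00547) and -0.57 ± 0.12 (0.00211), and was called in all 20 fits that left out 1 library in either comparison. Against 5 weeks the adaptor Gab1 (0.60 ± 0.21, adjusted p = 0.0453) and the phospholipase Plcg1 (0.67 ± 0.24, 0.0470) were also higher, in 7 and 6 of the 20 fits without 1 library.

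Of 9 other listed feedback inhibitors, 1 was called. Il17rd, also known as Sef, a membrane inhibitor of FGF signalling, held 9.92 ± 4.24 CPM (SD, n = 7) at 5 weeks, 9.71 ± 2.18 (SD, n = 7) at 8 weeks and 26.9 ± 19.2 (SD, n = 6) in aged uteri. The aged values were 44.4 and 57.1 CPM in the earlier set and 15.3, 8.94, 15.0 and 20.8 in the later set, and 3 of 6 lay above every younger library. It was higher by 1.09 ± 0.31 against 8 weeks (limma adjusted p = 0.0202) and 1.15 ± 0.31 against 5 weeks (0.0123), and the first call was lost without 8-week replicate 2 or aged replicates 1 or 2. Spry4 (-0.68 ± 0.28, adjusted p = 0.0919), Dusp6, an ERK phosphatase (-0.40 ± 0.25, 0.275), Spred1 (-0.06 ± 0.19) and Spred2 (-0.11 ± 0.31) were not called against 8 weeks. Within the earlier set alone Spry4 was lower in aged uteri, by a difference of -1.61 from 8 weeks (limma adjusted p = 0.0226) and -1.33 from 5 weeks (0.0456), and Dusp6 was lower against 5 weeks (-1.31, 0.0126). Within the later set these differences were -0.26 (0.742), -0.17 (0.777) and -0.06 (0.931). The difference between the sets was not called for either gene (adjusted p = 0.246, 0.557 and 0.442). Over both sets Spry4 was also called against 8 weeks with median centring (-0.73, adjusted p = 0.0343), trimmed-mean factors (0.0481), quantile normalization (0.0375), limma-voom (0.0347) and without 8-week replicate 4 (0.0311).

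The 5 listed targets that FGF signalling induces were the transcription factor genes Etv5, Egr1, Fos and Myc and the cyclin gene Ccnd1. Of these Egr1, an immediate early gene, was higher against 8 weeks by 1.31 ± 0.38 (limma adjusted p = 0.0245) and differed from 5 weeks by 0.79 ± 0.38 (0.142). Its level was 16.7 ± 6.87 CPM (SD, n = 7) at 5 weeks, 11.9 ± 6.19 (SD, n = 7) at 8 weeks and 31.6 ± 15.4 (SD, n = 6) in aged uteri, and the call held in 15 of 20 fits without 1 library. Etv5, an ETS factor used as a readout of FGF signalling, differed by -0.38 ± 0.33 from 8 weeks (adjusted p = 0.456). It was lower in the earlier set alone (-1.33, limma adjusted p = 0.0246) and differed by 0.04 (0.978) in the later set, and the difference between the sets was not called (1.37 ± 0.67, adjusted p = 0.363). Of 6 listed hormonal regulators of stromal FGFs 0 were called in either comparison. Hand2, the repressor named above, held 38.2 ± 15.9 CPM (SD, n = 7) at 8 weeks and 25.8 ± 8.80 (SD, n = 6) in aged uteri, a difference of -0.46 ± 0.20 (adjusted p = 0.123), and the opposite-strand Hand2os1 covers 19.6% of its exons.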

How the data were processed

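RNA sequencing of whole uterus gave 1 table per sample, in which the authors deposited CPM, counts scaled to a fixed sum over the listed genes. Per the submitters' processing notes the tools included fastp, STAR, featureCounts and edgeR, with GRCm38 as the build. Versions, and whether strand was used, are not given in the sources read here. Since CPM values were whole multiples of the worth of 1 read, depth could be recomputed.

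Columns were assigned by their headers. One file held no numbers, and aged replicate 3 was not analysed here. limma 3.58.1 (R 4.3.3) with a trend was fitted to log2(CPM + 1) over 20 libraries with terms for age and set. Fold changes on that scale understate those of low genes. Exon lengths and overlaps came from GENCODE release 21 on GRCm38, and the fit was tested on simulated data. Alternatives were other pseudocounts (0.5 and 2), a mean of at least 5 CPM, 3 other scalings, no set term, each set alone, a replicate block, columns by file, and each library left out.

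Members and lists were chosen with earlier results of these data known. Named pathway genes were those called, at most 5 per list, and a fixed list of further regulators where listed.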

Additional observations from a re-analysis of the deposited data

Results flagged for a closer look

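In 84 groups of libraries, for the 9 members and 19 other pathway genes at 3 ages, the highest or lowest library was compared with the rest of its group by Dixon's test at the 95% level. The test was run on CPM, not on the log scale, and it marked 6, each a highest library. For normally distributed values chance alone would mark about 1 in 20, or 4.2. These groups pool both sets and CPM was not checked for that distribution, so 4.2 is only a rough guide. Among members, Fgfr3 in 5-week replicate 4 (3.11 CPM) lay above the other 5-week libraries (0.946 to 1.79), Fgf7 in aged replicate 5 (14.1 CPM) above the other aged ones (2.72 to 5.67), and Fgf10 in 5-week replicate 5 (16.8 CPM) above the other 5-week ones (3.37 to 8.33). Aged replicate 5 was also the aged library with the lowest Fgfr1, Fgfr2 and Spry1. Among the other genes, Spry4 stood apart in aged replicate 2 (9.65 CPM, others 3.15 to 5.32), Fgfbp3 in 5-week replicate 3 (4.29 CPM, others 1.86 to 2.65) and Gab1 in 8-week replicate 1 (34.5 CPM, others 19.0 to 25.5). Aged replicate 2 is 1 of 2 earlier-set aged libraries and 8-week replicate 1 is 1 of 2 earlier-set 8-week libraries, and both Spry4 (-1.72, limma adjusted p = 1.00e-05) and Gab1 (-0.76, 0.00160) were lower in the later set. The 5-week replicate 3 column lay in a file attached to an aged sample.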

How the results depend on the processing

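No difference of a member or named pathway gene changed sign in a fit in which it was called. The count of members called against 8 weeks was 1, and became 2 (Fgfr1 and Fgfr2) with trimmed-mean factors, median centring, quantile normalization, a pseudocount of 2 CPM and limma-voom, the last chosen after seeing the data. It became 0 with columns attached by file, the later set alone, no set term, the replicate block and without the libraries in files of another age, and ranged from 0 to 2 over fits without 1 library. Against 5 weeks the count of 2 became 0 in the later set alone and 1 with no set term or the replicate block, and ranged from 0 to 3 without 1 library. Over all genes, the 2196 calls against 8 weeks became 565 with columns attached by file, 3613 in the earlier set alone, 183 in the later set alone and 969 with no set term, and 1309 to 2617 without 1 library (8-week replicates 1 and 2 and aged replicate 1 moved it most). The 2825 calls against 5 weeks became 523 in the later set alone and 1380 with no set term. The set-dependent age effects, 3 genes against 8 weeks, became 47 with trimmed-mean factors, 45 with median centring, 64 with quantile normalization, 7 with a mean of at least 5 CPM and 5 with a pseudocount of 2. Against 5 weeks, 0 became 1 with median centring and 6 with quantile normalization. The causes were not tested. In the labels, same-numbered libraries of different ages share only a number. Of 19 such pairs 10 had deviations correlated above 0.1 (range -0.505 to 0.279), and 4 correlated best with their own number. All 4 were of replicates 1 and 2, the earlier set. There each mean is of 2 libraries, whose deviations mirror each other, so both replicates give the same r. The 19 values are therefore not independent and do not settle whether such libraries were paired. With the replicate block 1637 genes were called against 8 weeks and 2413 against 5 weeks, and the adjusted p was 0.0675 and 0.0532 for Fgfr2 and 0.0956 and 0.0486 for Fgfr1. The planned fits with edgeR and DESeq2 were not run. Low counts limit Fgfr3, Fgf7, Fgf9 and Fgf10, whose libraries reach down to 23, 16, 55 and 30 reads.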

Other observations

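Between the sets 5 of 9 members differed, where 58.7% of all genes did. Besides Spry1 and Spry2, the set term (later minus earlier, on the log2(CPM + 1) scale) was called for Fgf2 (-0.996 ± 0.231, limma adjusted p = 0.00114) and Fgfr3 (-0.76 ± 0.20, 0.00301), which were lower in the later set. Fgf7 was higher there (1.02 ± 0.29, 0.00464), with 1.29 to 3.86 CPM in the earlier and 2.72 to 16.8 CPM in the later set. Fgfr1 (-0.32 ± 0.23, adjusted p = 0.226), Fgfr2 (-0.12 ± 0.25), Fgf9 (-0.40 ± 0.29) and Fgf10 (0.35 ± 0.26) were not called. Among aged libraries the set and the age of the mice cannot be told apart, but 5-week and 8-week mice were of the same age in both sets. In the means of both young groups the 5 called members differed between the sets in these same directions. Spry2 averaged 78.0 CPM in the earlier and 20.8 in the later set at 5 weeks, and 72.9 and 16.1 at 8 weeks. Fgf7 averaged 2.79 and 7.11 CPM at 5 weeks, and 2.04 and 8.52 at 8 weeks.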
